A study of Mus musculus with 12 samples.

Results

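The comparison set 4 libraries of mouse blastocysts from zygotes given an siRNA against Nampt (siNampt) against 4 libraries of control blastocysts (C), 8 of the 12 libraries of the series. Each siNampt and C library came from 1 pool of 10 embryos, with 2 siNampt pools labelled ND, 2 siNampt pools labelled HFD, 2 C pools labelled ND and 2 C pools labelled HFD. ND and HFD are not spelled out in the labels, while normal weight and obese mice are named in the title of the series. The remaining 4 libraries, from zygotes given a non-targeting siRNA (siNT), 2 per diet, are shown beside the others. All embryos were wild type (labelled ICR_WT), came from superovulated oocytes fertilized in vitro, and were grown in KSOM medium to the blastocyst stage at 96 hpi. The siRNAs were electroporated into 1-cell embryos at 3 to 6 hpi. No source used here says whether C zygotes were electroporated too, with no siRNA. Replicate numbers 1 and 2 equal the batch tag of the labels, so every group holds 1 library of each batch. The labels do not tie the pools to separate matings, so a p-value here sets a difference against the variation between embryo pools, which may be technical.

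Nampt, also called visfatin, is the rate-limiting enzyme of the salvage route that turns nicotinamide back into NAD. NAD carries electrons between glycolysis, the TCA cycle and the respiratory chain, and it is consumed by sirtuins, which remove acyl groups from proteins, and by ADP-ribose polymerases, which act in DNA repair and other signals. A blastocyst consists of an outer epithelium, the trophectoderm, which pumps fluid into the cavity, and an inner cell mass that separates into epiblast and primitive endoderm. An siRNA put into the zygote is diluted as cells divide, and messenger levels at the blastocyst stage are read several divisions later.

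All gene levels below are CPM (expected counts scaled to library size with TMM factors), in the order ND replicate 1, ND replicate 2, HFD replicate 1 and HFD replicate 2. Fold changes are siNampt over C on the log2 scale, from an edgeR quasi-likelihood fit with diet and batch as covariates. The 8 libraries held 43619310 to 50503064 expected counts, and the tests cover 14429 of 24411 genes, those that passed the filter on low counts. Across genes, log2 CPM correlated at 0.983 to 0.990 among siNampt libraries, 0.983 to 0.992 between siNampt and C, and 0.986 to 0.990 among C libraries. The blastocyst identity of the pools shows in their markers, with the trophectoderm keratin Krt18 averaging 3789 ± 744 CPM in siNampt against 2923 ± 299 CPM in C, and the pluripotency factor Pou5f1 39 ± 3.43 CPM in siNampt against 33 ± 1.67 CPM in C (SD, n = 4 each). In bulk RNA, fewer cells of a type and less RNA per cell cannot be told apart.

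The siNampt pools did not hold equal shares of Y-linked RNA, and these values stand beside the results that follow. The 9 Y-linked genes summed to 355, 91.9, 162 and 68.4 CPM in siNampt, 317, 433, 313 and 199 CPM in siNT, against 329, 116, 319.8 and 289 CPM in C. All 9 were lower in siNampt than in C, with a median log2 difference of -0.80, -0.43 in ND and -1.73 in HFD. With edgeR, 6 of the 9 were lower at an unadjusted p under 0.05, beside 1.58% of all genes tested, and 0 passed adjustment. The 3 lowest sums of the siNampt and C libraries were those of both batch 2 siNampt pools and of ND_C replicate 2. Xist, the RNA that coats the inactive X chromosome in female cells, stood at 32.4, 169, 140.0 and 143 CPM in siNampt, 72.4, 83.9, 103 and 91.3 CPM in siNT, against 71.1, 187, 105 and 103 CPM in C. On the first principal component of the 8 libraries, with 27.8% of the variance, those 3 libraries scored 19.1 to 24.9 and the other 5 scored -20.8 to -5.92. Those 3 libraries are all of batch 2. The remaining batch 2 pool, HFD_C replicate 2, scored -5.92, above every batch 1 pool (-20.8 to -12.2). The component thus parted the batches too, and batch and the Y-linked level cannot be told apart on it. The libraries also differed in how levels followed the GC content of transcripts. Spearman's correlation over genes, between GC content and a library's deviation from the mean log2 CPM of the 12, was 0.133, 0.236, 0.117 and 0.454 in siNampt, -0.269, -0.261, -0.046 and -0.208 in siNT, and -0.022, 0.178, -0.513 and 0.137 in C. The part of either in the gene results was not tested beyond the corrected fits given beside them.

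**Figure D1:**
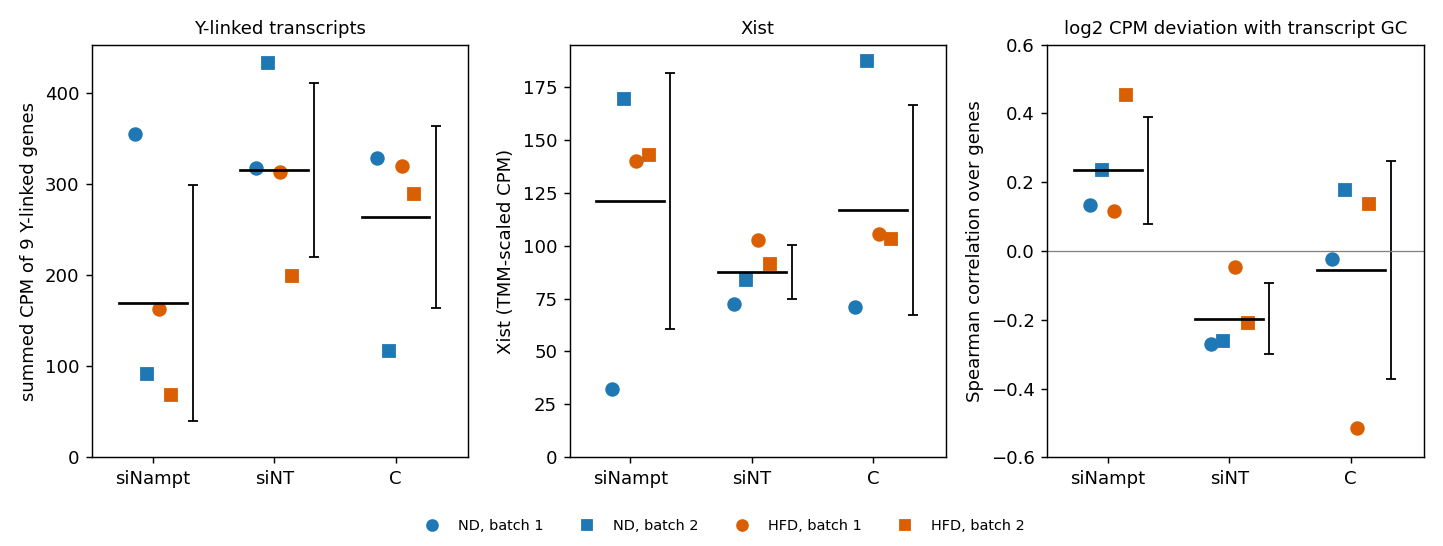
Left, summed CPM of 9 Y-linked genes; middle, Xist in TMM-scaled CPM; right, Spearman's correlation over genes between transcript GC content and the library's log2 CPM deviation. Each point is 1 pool (blue ND, orange HFD; circles batch 1, squares batch 2), with the mean as a line and the SD as a bar; 3 of 4 siNampt pools lie at or below 162 CPM in the left panel, and all 4 siNampt pools lie above 0 in the right panel.

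Nampt itself was only slightly lower in siNampt than in C at the blastocyst stage, and the difference did not exceed the spread between pools. The gene lies on the + strand of chromosome 12 (chr12:32819545-32853349, GRCm38). It stood at 53.9, 37.7, 50.3 and 44 CPM in siNampt, 74.6, 49.4, 61.3 and 66 CPM in siNT, against 54.2, 38.2, 67 and 57.3 CPM in C. The siNampt and C pools overlapped, with both ND_siNampt pools within 1 CPM of the ND_C pool of the same batch and both HFD_siNampt pools below both HFD_C pools. The means were 46.5 ± 7.11 CPM in siNampt, 62.8 ± 10.5 CPM in siNT, and in C 54.2 ± 11.9 CPM (SD, n = 4 each). Per length, Nampt averaged 10.98 ± 1.54 TPM in siNampt and 12.5 ± 2.36 TPM in C (SD, n = 4 each).

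On the log2 scale the difference was -0.21 (SE 0.14) with a 95% interval of -0.52 to 0.10 and an edgeR adjusted p of 0.999. It was -0.01 in ND and -0.42 in HFD, and the difference between those responses was -0.41 (SE 0.26, edgeR adjusted p = 0.957). Within batches it was -0.21 in batch 1 and -0.20 in batch 2, and each of the 4 siNampt pools was below the C pool matched to it by diet and batch. An exact permutation test (two-sided, 70 arrangements of the labels) gave p = 0.343 for a mean that was 13.2% lower, where the smallest possible p is 0.0286. The paired exact test gave p = 0.125, the smallest that 4 pairs allow. With GC content and length of the transcripts corrected for, the log2 difference was -0.08, and with the Y-linked level as a covariate it was 0.07. Without HFD_siNampt replicate 1 it was -0.12. In the fit of all 12 libraries, which reuses the same siNampt and C pools, siNampt minus siNT was -0.44 and siNT minus C was 0.23.

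**Figure D2:**
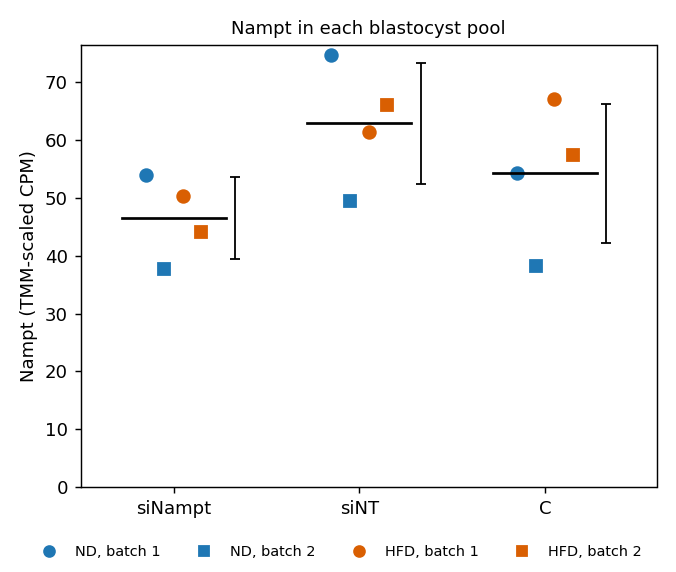
Nampt in TMM-scaled CPM in each of the 12 pools (blue ND, orange HFD; circles batch 1, squares batch 2), with the mean of each treatment as a line and the SD as a bar. The 4 siNampt pools lie between 37.7 and 53.9 CPM, and the 4 C pools between 38.2 and 67.0 CPM.

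Across the transcriptome few genes separated siNampt from C. With edgeR, 0 of 14429 genes (0%) had an adjusted p under 0.05, and 534 (3.7%) had an unadjusted p under 0.05, of which 306 (2.12%) were higher and 228 (1.58%) lower in siNampt. DESeq2, run on the same counts and design, called 9 genes (0.0624%), 4 higher and 5 lower. In 208 genes (1.44%) all 4 siNampt pools lay above all 4 C pools, and in 124 (0.859%) all 4 lay below. For a gene without ties, a share of 0.0286 of the 70 arrangements of the labels sets 4 pools wholly above or below the other 4. Pools that do not overlap are therefore given below as a description of single genes. In 1076 genes (7.46%) siNampt was higher in 4 of 4 pairs matched by diet and batch, and in 835 (5.79%) it was lower in 4 of 4. For genes averaging 5 CPM or more, the median SE of a log2 fold change was 0.158. The transcripts of the genes higher at an unadjusted p under 0.05 had a median GC content of 57.1%, those of the lower genes 44.3%, and those of all tested genes 50.4%.

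**Figure D3:**
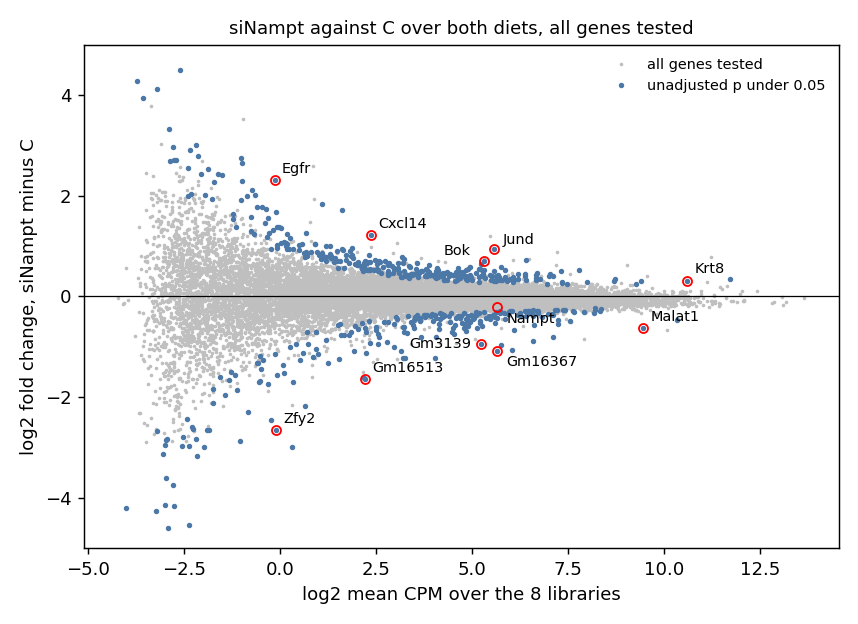
Log2 fold change of siNampt over C against the log2 mean CPM of the 8 libraries, for the tested genes (grey) and those with an unadjusted p under 0.05 (blue); 8 genes of low counts lie beyond 5 log2 units and are outside the frame. Circled genes are named in the text; Nampt lies at -0.21, close to the grey band's centre, and the genes called by DESeq2 lie at its edges.

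The genes DESeq2 called higher encode a transcription factor, a chemokine, an apoptosis protein and a growth factor receptor. Jund codes for a JUN family subunit of the AP-1 transcription factor, Cxcl14 for a chemokine made by epithelia, and Bok for a pore-forming member of the BCL2 family. Egfr is the receptor for EGF and HB-EGF, present on the mouse trophectoderm at implantation. The bases before their start sites are given here because these are the genes that came out together. Each run is the 250 bases upstream of the RefSeq transcript start on the gene's own strand in GRCm38.p6, and capitals mark a GC box (GGGCGG or, on the other strand, CCGCCC).
Jund, chr8:70697489-70697738, + strand: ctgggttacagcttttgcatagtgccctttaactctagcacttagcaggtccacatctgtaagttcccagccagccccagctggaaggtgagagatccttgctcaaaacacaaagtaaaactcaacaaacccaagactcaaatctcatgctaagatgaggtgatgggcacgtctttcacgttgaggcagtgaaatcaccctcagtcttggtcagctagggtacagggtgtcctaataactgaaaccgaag
Bok, chr1:93685325-93685574, + strand: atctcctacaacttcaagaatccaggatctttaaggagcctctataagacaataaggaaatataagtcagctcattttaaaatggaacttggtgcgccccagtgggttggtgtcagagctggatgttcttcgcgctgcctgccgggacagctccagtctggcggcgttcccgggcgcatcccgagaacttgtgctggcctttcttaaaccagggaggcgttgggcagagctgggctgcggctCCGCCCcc
Cxcl14, chr13:56296552-56296801, - strand: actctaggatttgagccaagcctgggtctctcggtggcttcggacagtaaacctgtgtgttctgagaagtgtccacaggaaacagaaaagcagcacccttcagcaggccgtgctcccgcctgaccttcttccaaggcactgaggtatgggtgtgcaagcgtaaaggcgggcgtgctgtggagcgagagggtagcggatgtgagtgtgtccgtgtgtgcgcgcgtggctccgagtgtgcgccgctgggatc
Egfr, chr11:16751953-16752202, + strand: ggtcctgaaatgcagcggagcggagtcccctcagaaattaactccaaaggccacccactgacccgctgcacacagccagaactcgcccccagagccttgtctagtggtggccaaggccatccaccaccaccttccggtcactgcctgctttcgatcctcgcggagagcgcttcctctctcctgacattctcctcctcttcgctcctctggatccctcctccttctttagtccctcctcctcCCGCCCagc
Bok and Egfr each hold 1 GC box, and Jund and Cxcl14 hold 0. The AP-1 motif TGANTCA, searched on both strands, occurs 0 times in the 4 runs. Among 32851 RefSeq promoters of the same length, 32.7% hold a GC box and 6.75% hold an AP-1 motif. The GC content of the runs was 47.6% for Jund, 55.2% for Bok, 59.6% for Cxcl14 and 60.8% for Egfr, beside a median of 52.4% over those promoters.

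Jund stood at 58.8, 76.1, 37.1 and 81.1 CPM in siNampt, 27.8, 28.6, 45.1 and 29.4 CPM in siNT, against 34.9, 34.5, 25 and 33.5 CPM in C. All 4 siNampt pools lay above all 4 C pools, and HFD_siNampt replicate 1 was the lowest of the siNampt pools. The log2 difference was 0.94 (SE 0.17), with an edgeR adjusted p of 0.690 and a DESeq2 adjusted p of 0.0016. It was 0.94 in ND and 0.94 in HFD, 0.65 in batch 1 and 1.198 in batch 2. With the correction for GC content and length the value was 0.60. Of the siNT pools, 3 lay within the C range, and HFD_siNT replicate 1 lay above every C pool and above HFD_siNampt replicate 1, so siNampt and siNT overlapped. On average siNT minus C was 0.05 and siNampt minus siNT was 0.91, comparisons that share libraries with the first.

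Cxcl14 was a low-level transcript at 5.6, 9.44, 6.22 and 7.44 CPM in siNampt, 3.38, 4.6, 2.59 and 5.4 CPM in siNT, against 3.11, 4.8, 1.78 and 3.05 CPM in C. The siNampt pools again lay above the C pools without overlap, although ND_C replicate 2 came close to ND_siNampt replicate 1. Its log2 difference was 1.22 (SE 0.23), 0.92 in ND and 1.53 in HFD (edgeR adjusted p = 0.690, DESeq2 0.00368). Bok stood at 55.4, 51.2, 46.8 and 42.7 CPM in siNampt, 40.7, 39.4, 39.7 and 28.6 CPM in siNT, against 32.2, 25.6, 32.6 and 28.7 CPM in C. The lowest siNampt pool was above the highest C pool, and 3 of 4 siNT pools lay between the ranges of the siNampt and C pools. The log2 difference of Bok was 0.71 (SE 0.14, edgeR adjusted p = 0.700, DESeq2 0.00519), 0.90 in ND and 0.53 in HFD, and 0.50 with the GC and length correction. Egfr was near the lower limit of what was counted, at 1.46, 1.66, 1.39 and 1.43 CPM in siNampt, 0.202, 1.56, 0.414 and 1.08 CPM in siNT, against 0.199, 0.149, 0.544 and 0.418 CPM in C. The siNampt pools were tightly grouped above every C pool, whereas the siNT pools spread over both ranges. The fitted log2 difference of Egfr was 2.30 (SE 0.50, DESeq2 adjusted p = 0.0252).

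The other higher genes of smallest p were called by neither tool. Pvrl2, now Nectin2, is an adhesion molecule of cell contacts and stood at 44.5, 42.3, 41.5 and 42.4 CPM in siNampt, 24.6, 23.5, 35.7 and 25.1 CPM in siNT, against 31.7, 26.7, 25.8 and 32.6 CPM in C. The 4 siNampt pools sat close together and above every C and siNT pool, at a log2 difference of 0.54 (SE 0.14). Bmp4, a TGF-beta family ligand that the inner cell mass makes, stood at 8.82, 9.62, 13.5 and 15.2 CPM in siNampt, 13.6, 4.76, 7.99 and 11.4 CPM in siNT, against 7.71, 4.84, 6.77 and 8.11 CPM in C. Its log2 difference was 0.75 (SE 0.20), and ND_siNT replicate 1 and HFD_siNT replicate 2 lay as high as siNampt pools. Arf5, a small GTPase of Golgi transport, differed by 0.40 (SE 0.11), Limd2, a LIM domain protein, by 0.57 (SE 0.14) and the RNA-binding Rbm42 by 0.58 (SE 0.15). The pools of siNampt and C did not overlap for Arf5 and Limd2, and they did for Rbm42, where HFD_siNampt replicate 1 at 49 CPM lay below ND_C replicate 1 at 49.8 CPM. With the GC and length correction the differences were smaller, 0.34 for Pvrl2, 0.23 for Arf5 and 0.36 for Rbm42.

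For 2 higher genes the siNT mean was close to the siNampt mean. Moap1, a BAX-binding promoter of apoptosis, stood at 14.4, 9.15, 11.6 and 10.5 CPM in siNampt, 11, 11.3, 9.07 and 11.7 CPM in siNT, against 7.79, 5.29, 8.58 and 5.22 CPM in C. Serpinb6b, a serine protease inhibitor of a multigene family, stood at 106, 107, 112 and 94.8 CPM in siNampt, 111, 155, 73.5 and 82.8 CPM in siNT, against 77.5, 39.2, 70.5 and 69.8 CPM in C. The siNT pools of Moap1 lay within the siNampt range or just below it, whereas those of Serpinb6b spread widely, with both HFD_siNT pools below every siNampt pool and ND_siNT replicate 2 above them all. Over the 12 libraries siNampt minus siNT was 0.06 for Moap1 and 0.00 for Serpinb6b, beside 0.78 and 0.72 for siNampt minus C. For Pvrl2, Rbm42 and Arf5 siNampt minus siNT was 0.66, 0.65 and 0.39. Gm10052, the gene of smallest p (edgeR adjusted p = 0.0588), was counted only in the batch 2 siNampt pools, at 1.87 CPM in ND and 15.4 CPM in HFD, and was at 0 in the other 10 libraries. It is a predicted gene with near-identical copies, so the place of its reads is uncertain.

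**Figure D4:**
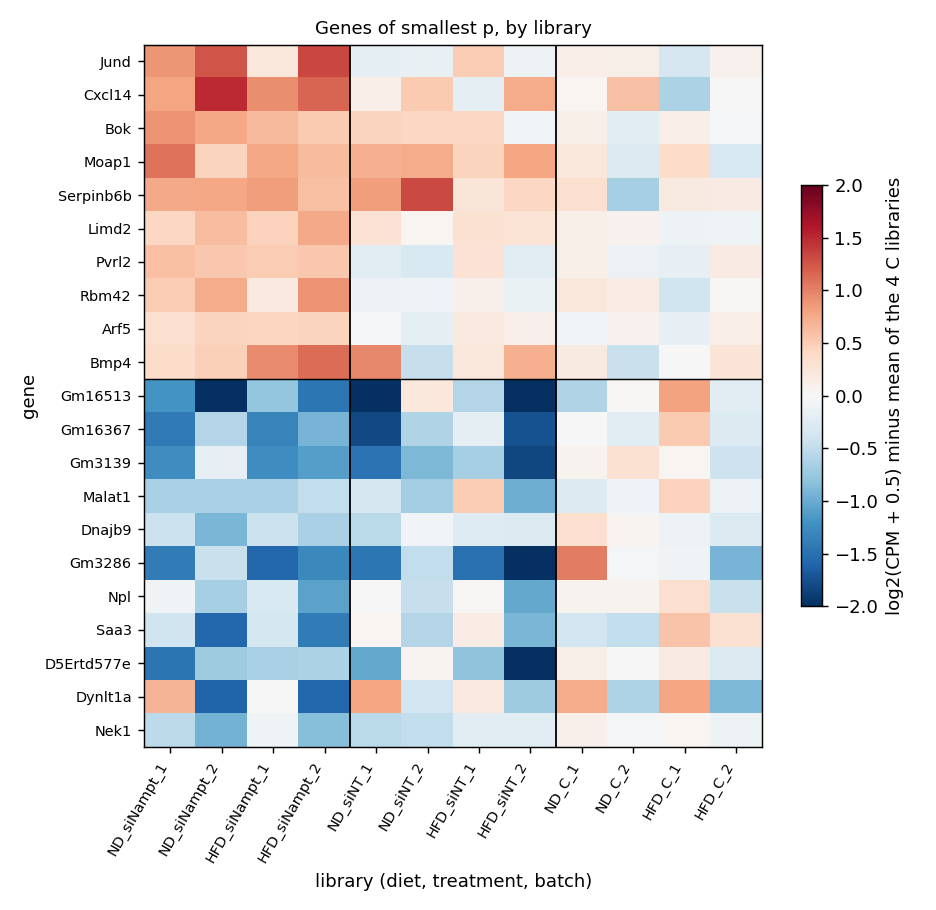
Log2(CPM + 0.5) of 10 higher and 11 lower genes among those of smallest p, relative to the mean of the 4 C pools, in the 4 siNampt (left), 4 siNT (middle) and 4 C pools (right). Red is higher and blue lower, on a scale that ends at 2. Cxcl14 and Jund are on average the reddest in siNampt, while Moap1, Gm3139 and Gm3286 have like colours in siNampt and siNT.

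The 3 lower genes of smallest p, Gm16513, Gm16367 and Gm3139, are predicted or PRAME-like genes, and Gm3286 and D5Ertd577e stand further down the same ranking, after Malat1 and Dnajb9. PRAME-like genes are a multi-copy family, several members of which are expressed in early embryos and embryonic stem cells. Gm3139, now Pramel42, lies on chromosome 5 (chr5:94526287-94546423, GRCm38) and stood at 20.2, 42.9, 20.2 and 22.1 CPM in siNampt, 17, 25.5, 30.2 and 13.3 CPM in siNT, against 50.5, 59.8, 49.6 and 35.9 CPM in C. ND_siNampt replicate 2 overlapped the C range, and the other 3 siNampt pools lay between 20 and 23 CPM. The log2 difference was -0.95 (SE 0.21), -1.29 in batch 1 and -0.58 in batch 2 (edgeR adjusted p = 0.999, DESeq2 0.0104). Gm16513 (chr5:95182624-95195342) stood at 2.53, 1.15, 3.55 and 2.05 CPM in siNampt, 1.16, 7.54, 4.14 and 0.514 CPM in siNT, against 4.08, 6.56, 11.6 and 5.44 CPM in C. Every siNampt pool was below every C pool, and siNT pools lay on both sides. Its log2 difference was -1.64 (SE 0.31, edgeR adjusted p = 0.690, DESeq2 0.0016).

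Gm3286 (chr5:95510758-95522953) stood at 7.54, 15, 6.61 and 8.17 CPM in siNampt, 7.24, 14.6, 7.02 and 4.23 CPM in siNT, against 42.6, 20.2, 19.8 and 10.6 CPM in C, a log2 difference of -1.21 (SE 0.31, DESeq2 adjusted p = 0.0193). ND_C replicate 1 was the highest pool by far, and HFD_C replicate 2 lay within the siNampt range. D5Ertd577e, now Pramel48 (chr5:95456806-95485587), stood at 2.47, 4.49, 4.68 and 4.73 CPM in siNampt, 3.48, 7.94, 4.14 and 1.36 CPM in siNT, against 8.29, 7.71, 8.6 and 6.16 CPM in C. Its siNampt and C pools did not overlap, at a log2 difference of -0.94 (SE 0.25). Gm16367, a predicted gene, stood at 24.6, 44.3, 26.1 and 34.9 CPM in siNampt, 18.8, 44, 58 and 19.7 CPM in siNT, against 66.2, 56.7, 95.9 and 55 CPM in C, a log2 difference of -1.09 (SE 0.24) without overlap (DESeq2 adjusted p = 0.00394). The siNT pools were on average below the C pools for these genes as well. Over the 12 libraries siNampt minus siNT was 0.25 for Gm3139, 0.23 for Gm3286, 0.00 for D5Ertd577e, -0.10 for Gm16367 and -0.60 for Gm16513, while siNT minus C was -1.16, -1.47, -0.90, -0.96 and -0.997 in the same order.

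The interval of chromosome 5 from 94302519 to 95522953 holds 4 of these genes. It has 6 tested genes, and all 6 had a log2 difference below 0, from -2.98 for AA792892 to -0.55 for A430089I19Rik (now Pramel39). AA792892 rested on ND_C replicate 1, at 9.28 CPM, with at most 0.255 CPM in the other 7 siNampt and C pools. A430089I19Rik was above 0 without ND_C replicate 1 (0.39), ND_siNampt replicate 1 (0.42) or HFD_siNampt replicate 1 (0.07). This interval was chosen after the values were seen and gets no test, and reads of its near-identical copies may have been split between them. Over the genome, 22 tested genes carry a PRAME-like name, 6 of them higher and 16 lower in siNampt, with a median of -0.34. Pramel7, a factor of the naive pluripotent state, averaged 460.5 ± 104 CPM in siNampt against 465 ± 35.7 CPM in C (log2 -0.04), and Pramel6 averaged 227 ± 82.2 CPM in siNampt against 260.0 ± 76.3 CPM in C (log2 -0.26, and -0.08 without HFD_C replicate 1; SD, n = 4 each).

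Of the lower genes outside this group, Malat1, a long nuclear non-coding RNA, stood at 538, 536, 536 and 597 CPM in siNampt, 664, 519, 1193 and 428 CPM in siNT, against 698, 799, 1161 and 779 CPM in C. The siNampt pools were close together and below every C pool, while the siNT pools ran from below siNampt to above C. The log2 difference was -0.63 (SE 0.14), and -0.52 with the GC and length correction. Dnajb9, a co-chaperone of the endoplasmic reticulum, stood at 30.8, 21.8, 30.8 and 26.2 CPM in siNampt, 28.4, 39.9, 34.6 and 34.1 CPM in siNT, against 52.7, 43.2, 38.2 and 34.4 CPM in C, a log2 difference of -0.62 (SE 0.15) without overlap. Npl, which splits sialic acid, differed by -0.55 (SE 0.14), Saa3, an acute phase protein, by -1.01 (SE 0.27) and Nek1, a kinase of cilia and DNA damage signalling, by -0.63 (SE 0.18). The siNampt and C pools of Saa3 overlapped. Saa3 was at -0.47 with the Y-linked covariate, -0.50 in batch 1 alone and -1.28 without ND_C replicate 1. Dynlt1a, a dynein light chain with near-identical copies, differed by -0.63 (SE 0.17) and split by batch, at 45.6 and 28.5 CPM in batch 1 siNampt pools and 8.98 and 9.21 CPM in batch 2 siNampt pools. Ifng, which encodes interferon gamma, rested on the ND_C pools alone, at 1.49 and 7.5 CPM, and was at or near 0 in the other libraries. Zfy2, a Y-linked gene that DESeq2 called (log2 -2.69, adjusted p = 0.0181), stood at 0.648, 0, 0.385 and 0.128 CPM in siNampt, 0.606, 2.31, 1.32 and 1.96 CPM in siNT, against 2.43, 0.701, 2.63 and 0.478 CPM in C, beside the Y-linked sums given above.

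Genes of the NAD pathway itself lay close to C. Of 20 listed genes of NAD synthesis and salvage 14 were tested, 10 higher and 4 lower, with a median log2 difference of 0.09, beside -0.01 over all genes tested. At an unadjusted p under 0.05 there was 1 gene higher and 0 lower, beside 2.12% higher and 1.58% lower of all genes tested. That gene was Tdo2, the first enzyme of NAD synthesis from tryptophan, at 0, 1.29, 0.321 and 0.128 CPM in siNampt, 0, 0, 0 and 0.234 CPM in siNT, against 0, 0, 0.0218 and 0 CPM in C. It was barely counted, its largest value was in ND_siNampt replicate 2, and the fitted log2 difference of 5.53 (SE 1.70) was -2.63 with the Y-linked covariate. Nmrk1, the kinase that brings nicotinamide riboside into NAD, stood at 42.2, 36.2, 37.5 and 39 CPM in siNampt, 43.7, 38.9, 51.5 and 48.7 CPM in siNT, against 36.3, 47.8, 52.2 and 50.5 CPM in C, a log2 difference of -0.27 (SE 0.15). Cd38, which breaks down NAD, stood at 2.36, 1.99, 5.26 and 2.41 CPM in siNampt, 5.98, 2.78, 4.1 and 4.09 CPM in siNT, against 4.02, 3.31, 7.75 and 2.35 CPM in C, a log2 difference of -0.54 (SE 0.29), and siNampt and C overlapped for both genes. Nmrk1 was at -0.14 with the GC and length correction, and Cd38 at -0.32 without ND_C replicate 2. Nadk, which phosphorylates NAD to NADP and had the highest mean CPM of the list, differed by 0.07 (SE 0.14).

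The enzymes that consume NAD gave small and mixed differences. All 7 sirtuins were tested, 6 higher and 1 lower, with a median of 0.12, -0.01 in ND and 0.32 in HFD. Sirt7, a nucleolar sirtuin, stood at 12.2, 10.8, 10.1 and 12.8 CPM in siNampt, 9.89, 7.19, 9.75 and 9.23 CPM in siNT, against 7.99, 8.77, 7.4 and 10.5 CPM in C. It was higher in 4 of 4 pairs but the pools overlapped, at a log2 difference of 0.41 (SE 0.18, edgeR adjusted p = 0.999) and 0.23 with the GC and length correction. Sirt1, the sirtuin of highest mean CPM, differed by -0.04 (SE 0.15), and by 0.05 with the GC and length correction. Of 18 tested ADP-ribose polymerases and hydrolases 6 were higher and 12 lower, with a median of -0.10. Adprhl2, a hydrolase that removes ADP-ribose from serines, stood at 8.61, 13, 7.66 and 7.16 CPM in siNampt, 4.39, 4.08, 6.5 and 6.08 CPM in siNT, against 6.75, 6.2, 5.01 and 5.6 CPM in C, a log2 difference of 0.60 (SE 0.20) without overlap. Parp8 differed by -0.81 (SE 0.32) and Parp14, an interferon-linked member, by 0.59 (SE 0.30), with no overlap of the Parp14 pools. Without ND_C replicate 2 Parp8 was at -0.42. Parp2, a DNA repair enzyme, was at -0.12 (SE 0.13).

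Genes of energy metabolism lay close to C. Of 37 subunits of respiratory complex I 13 were higher and 24 lower, with a median of -0.04. At an unadjusted p under 0.05, 1 subunit was lower, beside 1.58% of all genes tested. This was Ndufa6, at 272, 266, 309 and 237 CPM in siNampt, 355, 367, 284 and 336 CPM in siNT, against 354, 305, 322 and 289 CPM in C, a log2 difference of -0.23 (SE 0.11). Of 38 nuclear-encoded subunits of complexes II to V 9 were higher and 29 lower, with a median of -0.10 and 0 at an unadjusted p under 0.05 in either direction. Summed over these subunits the siNampt and C pools overlapped, at 31202, 29121, 31854 and 26878 CPM in siNampt, 36039, 34808, 32309 and 36158 CPM in siNT, against 32682, 29907, 31195 and 31966 CPM in C. The median of siNT minus C was 0.21 for complex I and 0.16 for complexes II to V. Of 24 TCA cycle and pyruvate entry genes 16 were lower (median -0.04), among them Mpc1, a subunit of the mitochondrial pyruvate carrier, at -0.23 (SE 0.14). Of 21 glycolysis genes 11 were higher (median 0.03), among them Pkm, pyruvate kinase, at 0.26 (SE 0.14). Without HFD_C replicate 1 Mpc1 was at -0.09 and Pkm at 0.15, and with the GC and length correction they were at -0.09 and 0.10.

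Lipid genes gave differences of both signs. Slc25a20, which carries acylcarnitines into mitochondria, was at -0.37 (SE 0.16), and Hadhb, a subunit of the trifunctional protein of beta-oxidation, stood at 243, 246, 165 and 242 CPM in siNampt, 261, 222, 210.0 and 254 CPM in siNT, against 256, 267, 303 and 271 CPM in C. Every siNampt pool of Hadhb lay below every C pool, with HFD_siNampt replicate 1 far below the rest, at a log2 difference of -0.31 (SE 0.14) and of -0.15 without that pool. Of 20 fatty acid oxidation genes 6 were higher and 14 lower, with a median of 0.00 in ND and -0.20 in HFD. In cholesterol synthesis, where 13 of 25 were higher, Mvd and Mvk of the mevalonate route were at 0.42 (SE 0.18) and 0.32 (SE 0.14), and Idi1, the next enzyme of the route, at -0.35 (SE 0.16). Cidec, a lipid droplet protein, stood at 0.627, 1.95, 0.342 and 2.03 CPM in siNampt, 0.454, 0.607, 0.373 and 0.304 CPM in siNT, against 0.279, 1.19, 0.109 and 0.558 CPM in C, a log2 difference of 1.33 (SE 0.44) with the larger values in batch 2 of both siNampt and C. Pnpla2, the first lipase of triglyceride breakdown, was at 0.36 (SE 0.17). With the GC and length correction Mvd was at 0.23, Mvk at 0.13, Idi1 at -0.23 and Pnpla2 at 0.18.

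The trophectoderm keratins Krt8 and Krt18 were higher in siNampt at an unadjusted p under 0.05 and did not pass adjustment over all genes. Krt8, the type II keratin of the trophectoderm (chr15:101996698-102004482), stood at 1901, 1863, 1451 and 1695 CPM in siNampt, 1342, 1342, 1492 and 1341 CPM in siNT, against 1449, 1391, 1253 and 1421 CPM in C. The siNampt and C pools did not overlap, though HFD_siNampt replicate 1 at 1451 CPM and ND_C replicate 1 at 1449 CPM nearly met. The log2 difference of Krt8 was 0.31 (SE 0.10, edgeR adjusted p = 0.999), 0.41 in ND and 0.21 in HFD, and 0.17 with the GC and length correction. Its partner Krt18 was at 0.35 (SE 0.13), and its pools overlapped, with HFD_siNampt replicate 1 within the C range. Krt18 was at 0.24 with the GC and length correction, 0.24 without ND_C replicate 2 and 0.70 with the Y-linked covariate. Krt7 was at 0.47 (SE 0.23), an unadjusted p above 0.05, and at 0.19 without ND_siNampt replicate 1. With the Y-linked covariate Krt7 was at 1.39 (edgeR adjusted p = 0.0204). Of 23 tested trophectoderm markers 14 were higher and 9 lower, with 2 higher and 0 lower at an unadjusted p under 0.05, beside 2.12% higher and 1.58% lower of all genes tested, and a median of 0.03. That median was 0.23 in ND and -0.11 in HFD. Of 25 genes of tight junctions, polarity and the cavity 17 were higher, with the claudins Cldn4 and Cldn3 at 0.30 (SE 0.13) and 0.42 (SE 0.18), and Pard6b, a polarity protein, at 0.40 (SE 0.20). With the GC and length correction Cldn4 was at 0.16 and Cldn3 at 0.19. Without ND_siNampt replicate 1 Cldn3 was at 0.21, and without HFD_C replicate 1 Pard6b was at 0.17. With the Y-linked covariate Cldn3 was at 0.95 and Pard6b at 0.89.

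In the inner cell mass list 11 of 24 genes were higher and 13 lower, with a median of -0.01. At an unadjusted p under 0.05 Bmp4 was higher, and Nanog and Tdgf1 were lower, beside 2.12% higher and 1.58% lower of all genes tested. Nanog, a transcription factor of the epiblast, stood at 58.1, 92.7, 68.7 and 70.7 CPM in siNampt, 60.9, 83.9, 106 and 52.2 CPM in siNT, against 103, 118, 88.8 and 71.7 CPM in C. It was lower in 4 of 4 pairs with overlapping pools, at a log2 difference of -0.40 (SE 0.16) and of -0.23 without ND_siNampt replicate 1. With the Y-linked covariate Nanog was at -0.94. Tdgf1, a co-receptor of Nodal, differed by -0.30 (SE 0.13), and by -0.18 without ND_C replicate 1. Pou5f1, which encodes OCT4, stood at 36.7, 40.9, 35.6 and 42.8 CPM in siNampt, 29.6, 29.6, 46.8 and 26.3 CPM in siNT, against 34.1, 34.7, 31.1 and 32.2 CPM in C, a log2 difference of 0.23 (SE 0.13) without overlap of siNampt and C, and of 0.09 with the GC and length correction. Primitive endoderm markers had a median of -0.14, with 8 of 21 higher, but 0.22 in batch 1 and -0.43 in batch 2. The medians in ND and HFD differed in sign for the inner cell mass (-0.28 and 0.22) and the primitive endoderm (-0.30 and 0.08).

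Signalling genes near the receptor Egfr gave few differences. Map2k2, the ERK kinase MEK2, stood at 28.3, 34.1, 25.8 and 32.1 CPM in siNampt, 18.8, 18.8, 25.4 and 21 CPM in siNT, against 23.6, 21, 18.9 and 22.2 CPM in C. The siNampt pools lay above the C pools without overlap, at a log2 difference of 0.48 (SE 0.14) and 0.26 with the GC and length correction. Spry2, an inhibitor of receptor signalling that ERK induces, was at -0.31 (SE 0.16), and Fgfr1 at 0.26 (SE 0.17). Without ND_siNampt replicate 1 Spry2 was at -0.16, and without HFD_siNampt replicate 1 Fgfr1 was at 0.10. Of 24 genes of FGF and ERK signalling 12 were higher and 12 lower. In insulin signalling Akt2, a kinase, was at 0.29 (SE 0.14) and Pik3r1, the regulatory subunit of PI3-kinase, at -0.38 (SE 0.18). With the GC and length correction Fgfr1 was at 0.09 and Akt2 at 0.17.

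Of 22 BCL2 family and caspase genes 16 were higher and 6 lower, with a median of 0.10. Bok was the 1 member higher at an unadjusted p under 0.05, beside 2.12% of all genes tested. Bbc3, the p53-induced killer PUMA, was at 0.59 (SE 0.30) and Bid, which links caspase-8 to mitochondria, at 0.41 (SE 0.22). Bbc3 was at 0.30 with the GC and length correction, 0.16 in batch 1 alone and -0.04 with the Y-linked covariate, and Bid was at 0.24 without HFD_siNampt replicate 2. The p53 list was split, with 12 of 27 higher and 15 lower. Aen, an apoptosis nuclease induced by p53, stood at 31.1, 45.5, 28.5 and 36.6 CPM in siNampt, 20.1, 22.2, 26.9 and 27.1 CPM in siNT, against 20.9, 32, 21.3 and 30.4 CPM in C, a log2 difference of 0.44 (SE 0.13). It was higher in 4 of 4 pairs, and the pools overlapped because both batch 2 C pools exceeded HFD_siNampt replicate 1. Phlda3, which restrains AKT, was at 0.32 (SE 0.13), and Plk2, a p53-induced kinase, at -0.50 (SE 0.24). Phlda3 was at 0.08 with the GC and length correction and 0.08 with the Y-linked covariate, and Plk2 was at -0.26 without HFD_C replicate 1.

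Of 27 genes of DNA damage signalling and repair 9 were higher and 18 lower, with a median of -0.08. Fancd2, a protein of crosslink repair, stood at 10.1, 11.7, 9.33 and 11.6 CPM in siNampt, 12.3, 16.5, 10.8 and 11.2 CPM in siNT, against 15.6, 13.9, 13 and 14.3 CPM in C, and Chek1, the kinase that halts replication after damage, at 86.9, 80.6, 75.3 and 77.5 CPM in siNampt, 96.8, 99.6, 90.6 and 94.3 CPM in siNT, against 91, 98.9, 106 and 96.9 CPM in C. All siNampt pools of both genes lay below all C pools, at log2 differences of -0.42 (SE 0.16) for Fancd2 and -0.30 (SE 0.12) for Chek1. With the GC and length correction these were -0.38 and -0.15. In the cell cycle list Cdk1, the mitotic kinase, was at -0.26 (SE 0.11), and the G1 cyclins Ccnd3 and Ccnd1 at 0.33 (SE 0.13) and 0.95 (SE 0.42), with 12 of 28 members higher. Ccnd3 was at 0.14 with the GC and length correction.

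The list with the highest median of those plotted was that of the ATF4 response, which raises amino acid and serine synthesis under stress. Of its 24 genes 19 were higher and 5 lower, with a median of 0.20. At an unadjusted p under 0.05, 1 gene was higher, beside 2.12% of all genes tested. Batch 1 alone had a median of 0.59, against -0.24 for batch 2, and the median was 0.45 in ND and -0.08 in HFD, and 0.45 for siNT minus C. Its summed level was 2678, 1239, 1692 and 1518 CPM in siNampt, 2235, 1471, 1678 and 2696 CPM in siNT, against 1568, 1325, 1295 and 2014 CPM in C, with ND_siNampt replicate 1 and HFD_siNT replicate 2 highest. Without ND_siNampt replicate 1 the median was -0.15, without HFD_C replicate 1 it was -0.03, and leaving out any other library gave 0.12 to 0.60. With the Y-linked covariate it was 1.24. The gene of smallest p was Cebpb, a partner of ATF4, at 6.33, 4.14, 3.23 and 6.14 CPM in siNampt, 4.34, 1.68, 2.57 and 5.75 CPM in siNT, against 2.85, 4.1, 1.87 and 4.0 CPM in C, a log2 difference of 0.68 (SE 0.29). Ddit3, which encodes CHOP, stood at 35.3, 26.8, 19.7 and 39.2 CPM in siNampt, 42, 37.6, 15.2 and 56.5 CPM in siNT, against 26.5, 23.2, 14.6 and 25.7 CPM in C, a log2 difference of 0.43 (SE 0.22) beside -0.28 for siNampt minus siNT. Cebpb was at 0.38 without ND_siNampt replicate 1 and 0.36 with the GC and length correction, and Ddit3 was at 0.21 without HFD_siNampt replicate 2.

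**Figure D5:**
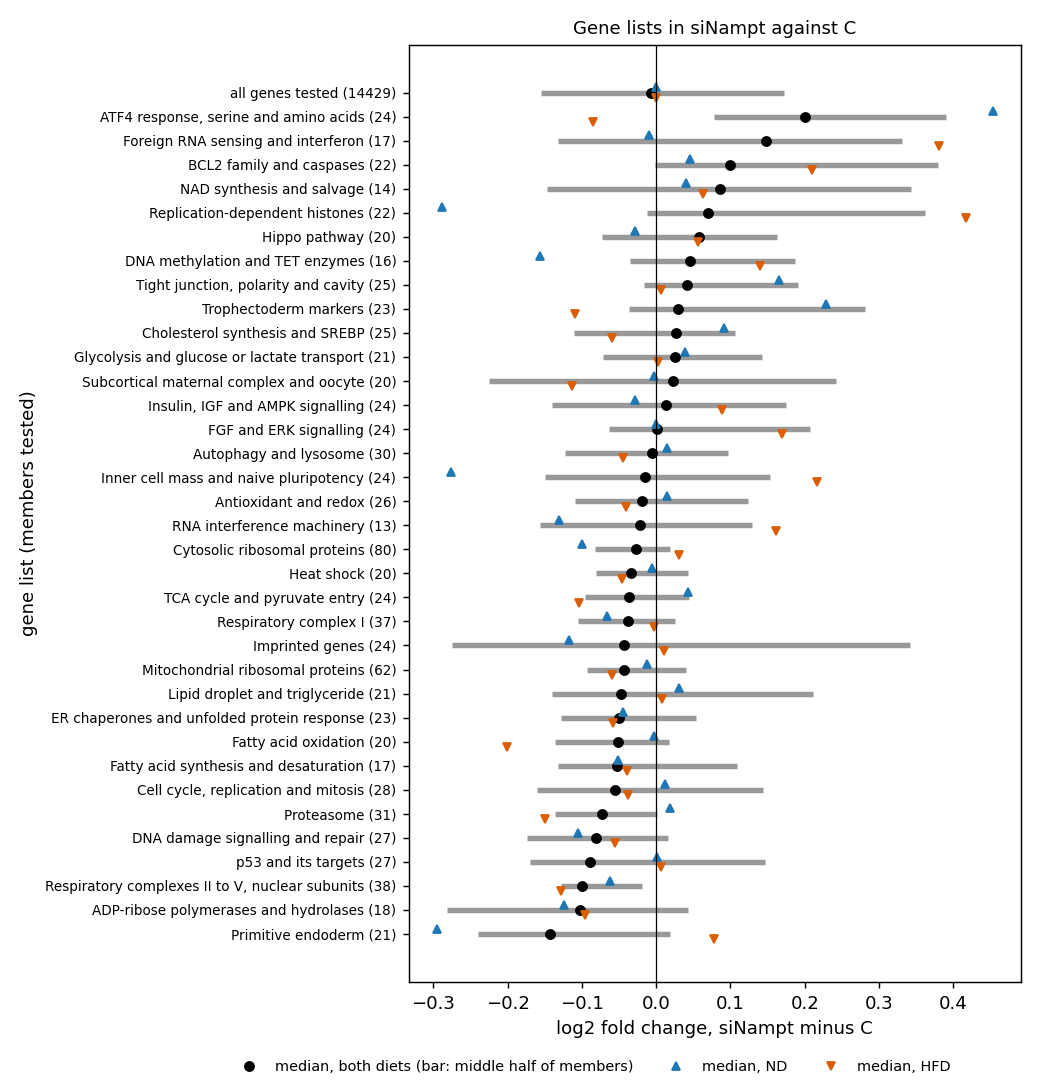
Median log2 fold change of siNampt over C for each gene list with at least 13 tested members (black points, grey bars the middle 50% of members), with the medians in ND (blue) and HFD (orange). The ATF4 list lies highest at 0.20 with ND at 0.45 and HFD at -0.08, the primitive endoderm list lowest at -0.14, and most black points lie within 0.1 of the median of all genes tested.

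Other lists gave single genes. Of 80 cytosolic ribosomal protein genes 28 were higher and 52 lower (median -0.03), and Rps27 was at -0.58 (SE 0.18), and at -0.38 without HFD_C replicate 1. In 24 imprinted genes 4 were higher and 1 lower at an unadjusted p under 0.05, beside 2.12% higher and 1.58% lower of all genes tested. Peg10, a placental gene of retroviral origin, stood at 12.8, 5.95, 13.8 and 9.13 CPM in siNampt, 7.82, 5.74, 12.3 and 6.92 CPM in siNT, against 5.0, 7.43, 7.73 and 5.04 CPM in C, a log2 difference of 0.66 (SE 0.25) with a difference of 1.04 in batch 1 and 0.25 in batch 2. Kcnq1ot1, the paternal RNA that silences its domain, was at -0.47 (SE 0.16), and -0.13 with the GC and length correction. It runs antisense to Kcnq1, and no source used here says that counting kept the strand. Cdkn1c, a growth inhibitor of that domain, averaged 4.91 ± 3.69 CPM in siNampt against 2.58 ± 0.542 CPM in C, and Gnas, a G protein subunit, 179 ± 22.4 CPM in siNampt against 146 ± 8.73 CPM in C (SD, n = 4 each). The Cdkn1c mean rested on ND_siNampt replicate 2 at 10.4 CPM, and its log2 difference of 0.76 was 0.34 without that pool and -0.06 with the Y-linked covariate. Gnas was at 0.29, and at 0.14 with the GC and length correction. Nnat, with under 1.2 CPM in every library, was at 1.63 (SE 0.65). Of 30 autophagy and lysosome genes 15 were higher, among them Tfeb, the lysosomal transcription factor, at 0.48 (SE 0.19) and Map1lc3a, an autophagosome protein, at 0.31 (SE 0.13). With the GC and length correction these were 0.23 for Tfeb and 0.10 for Map1lc3a.

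Genes that respond to foreign RNA gave no sign shared by their list. Of 26 listed, 17 were tested, 10 higher and 7 lower, with a median of 0.15, -0.01 in ND and 0.38 in HFD. Oas1a, a sensor of double-stranded RNA, stood at 14.6, 13.8, 18.5 and 20.4 CPM in siNampt, 17.2, 13.3, 16.1 and 23 CPM in siNT, against 7.73, 15.9, 11.1 and 12.4 CPM in C, a log2 difference of 0.52 (SE 0.20) with siNT as high as siNampt. Of 13 genes of the RNA interference machinery 6 were higher and 7 lower. Markers of cumulus cells, which surround the oocyte, summed to 392, 388, 363 and 299 CPM in siNampt, 349, 423, 439.8 and 242 CPM in siNT, against 426, 417, 527 and 361 CPM in C. Almost all of each sum was Serpine2 and Gja1, and the other listed markers added little. Whether those reads came from cumulus cells was not tested. Of 16 markers 6 were tested, 2 higher and 4 lower. Of the 16, 3 were at 0 in the 4 siNampt pools and 3 in the 4 C pools.

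Whether the response to siNampt differed between the diets was tested gene by gene as HFD minus ND. With edgeR, 0 genes passed (0%) and 617 (4.28%) had an unadjusted p under 0.05, while DESeq2 called 8. For genes averaging 5 CPM or more, the median SE of that difference was 0.315. Among the leading genes it was 0.01 (SE 0.36) for Jund, 0.60 (SE 0.43) for Cxcl14, -0.37 (SE 0.26) for Bok and -1.63 (SE 0.86) for Egfr. Among the lower genes it was -0.23 (SE 0.43) for Gm3139, 0.09 (SE 0.63) for Gm16513 and -0.31 (SE 0.27) for Malat1. With 2 pools per group, differences between the diets of the size of these SEs were not detectable.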

How the data were processed

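Poly(A) RNA libraries, made with the SMART-Seq v4 PLUS kit from pools of 10 blastocysts, per the labels' protocols, were processed by the authors with STAR 2.7.10 and RSEM 1.2.28 on mm10, per the submitters' processing notes. Each deposited table holds expected counts, TPM and FPKM per gene and gene lengths, per the file headers. The deposited expected counts were rounded and tested. TPM served as an alternative and for levels per length, and the deposited FPKM values were not used.

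The 4 siNampt and 4 C libraries were fitted with edgeR 4.0.16 in R 4.3.3 (filterByExpr with a minimum count of 10, TMM, quasi-likelihood test of treatment with diet and replicate number as covariates, two-sided, Benjamini-Hochberg adjustment over 14429 genes, threshold 0.05). SEs are the absolute log2 fold change over the square root of F. Values of siNT minus C and siNampt minus siNT come from 1 fit of all 12 libraries and share libraries with siNampt minus C. Within-batch values are differences of log2(CPM + 0.5). The method was tested on simulated data.

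The replicate number equals the batch tag, which pairs the libraries and was kept as a block. Correlations of the difference between replicates 1 and 2 across genes, over 6 pairs of groups, were -0.10 to 0.36 (median 0.16), 4 above 0.1.

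Genes were named by rule, given in part here: Nampt, the 12 higher and 12 lower genes of smallest p with a mean of at least 1 CPM, and from each of 41 lists the 3 members of smallest p and the one of highest mean CPM. The genes that DESeq2 called, the PRAME-like genes, Pou5f1, Cdkn1c, Gnas and 3 proteasome genes were named after their values were seen. A gene that the rule names is not reported here. The comparison, its members and the lists were chosen with earlier results of these data known. Alternatives were DESeq2 1.42.0, RLE size factors, other filters, limma 3.58.1 on log2 TPM with a pseudocount of 1 or 0.1, no replicate block, all 12 libraries, a GC and length correction, and leaving out each library. A covariate of Y-linked level and batch 1 alone were added after the data were seen. Coordinates and GC content are from GENCODE M21 and promoters from RefSeq, both GRCm38, the assembly also called mm10. GC content was known for 14358 genes. Depth was 43619310 to 50503064 expected counts per library compared.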

Additional observations from a re-analysis of the deposited data

Results flagged for a closer look

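In groups of 4 pools, 1 pool stood far from the other 3 in 17 of 206 groups looked at. A rate of about 1 in 20 would hold for independent pools of 1 normal population. It does not apply here, because each group mixes diets and batches and some of the genes move together. The figure after each gene is the gap to the nearest pool over the range of the 4. In siNampt, ND_siNampt replicate 1 stood apart for Arf5 (0.864) and D5Ertd577e (0.915), on the low side for both. ND_siNampt replicate 2 stood apart on the high side for Gm3139 (0.879) and Nnat (0.924). HFD_siNampt replicate 1 was low for Hadhb (0.955), at 165 CPM, and high for Sirt1 (0.843). HFD_siNampt replicate 2 was high for Malat1 (0.968), at 597 CPM beside 536 to 538 CPM in the other 3, and low for Ccnd1 (0.917).

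In C, HFD_C replicate 1 was low for Jund (0.877), at 25 CPM, and was the 1 C pool with a count of Tdo2 (1.00). It was high for Psma1 (0.977), at 1146 CPM. ND_C replicate 2 was low for Serpinb6b (0.845), at 39.2 CPM, and low for the Y-linked genes Uty (0.970) and Ddx3y (0.842) and for the Y-linked sum (0.877). ND_C replicate 1 was high for AA792892 (0.862), at 9.28 CPM. HFD_C replicate 2 was low for Rps27 (0.884), at 27.2 CPM.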

How the results depend on the processing

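With edgeR, 0 genes passed, and that count was 9 with DESeq2, 20 without a filter on low counts, 23 with the Y-linked covariate, 32 in batch 1 alone, where 4 libraries leave 1 residual degree of freedom, and 0 to 2 when 1 library was left out (1 without ND_C replicate 1, ND_C replicate 2 or ND_siNampt replicate 1, and 2 without HFD_siNampt replicate 1). It was 0 with RLE size factors, the stricter filter, limma on TPM with either pseudocount, all 12 libraries and the GC and length correction. The count at an unadjusted p under 0.05, 534, was 336 of 8578 genes with the stricter filter, 1179 with the Y-linked covariate, and 402 to 727 when 1 library was left out. On TPM with a pseudocount of 1, 437 of 606 such genes (72.1%) were higher, against 57.3% in edgeR, and with a pseudocount of 0.1 440 of 617. The count for the diet difference, 0, was 8 with DESeq2 and 0 to 6 when 1 library was left out, with 6 without ND_siNampt replicate 2, 3 without ND_siNampt replicate 1 or HFD_siNampt replicate 2, and 1 without ND_C replicate 1 or ND_C replicate 2.

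Without the replicate block 0 genes passed, 415 had an unadjusted p under 0.05, the Nampt difference was -0.21, and the diet difference had 0 calls, so the block changed no call.

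Nampt was -0.30 to -0.12 when 1 library was left out. With the Y-linked covariate the sign reversed for Nampt (0.071), Tdo2 (-2.63), Bbc3 (-0.035) and Cdkn1c (-0.064). It also reversed for Uty (0.30), Ddx3y (0.41) and Eif2s3y (0.44), which stood at -1.08, -0.97 and -0.80 without the covariate. Those Y-linked genes are part of the covariate, so their change was built in, and they count among the 21 reversals below. With the GC and length correction the sign reversed for Sirt1 (0.052), Psmb1 (0.028) and Pramel7 (0.084), and in batch 1 alone for Sirt1 (0.064). Leaving out 1 library gave -0.068 to 0.198 for Nadk, -0.199 to 0.048 for Sirt1, -0.203 to 0.097 for Pramel7 and -1.39 to 0.42 for A430089I19Rik. The cause was not tested, and the covariate itself differs between siNampt and C. Of the gene results for 102 genes under up to 19 alternatives, 1865 kept their direction and side of the threshold, 33 passed where the fit above did not, and 21 reversed. By over 1.5 times, 38 of the 102 became smaller and 0 larger with the GC and length correction, 11 smaller and 37 larger with the Y-linked covariate, and 42 moved either way when 1 library was left out. Of list medians 716 stayed within the spread between pools and 63 moved beyond it. Depth and the number of pools limit what could be seen, and the median SE over both diets was 0.158 for genes of at least 5 CPM.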

Other observations

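In the proteasome list 23 of 31 genes were lower in siNampt, with a median of -0.07, 0.02 in ND and -0.15 in HFD. In 4 of those lower genes the siNampt pools lay below every C pool, beside 0.859% of all genes tested. These were Psma1 at -0.19 (SE 0.12, where the ranges lay only a fraction of a CPM apart), Psma5 at -0.19 (SE 0.11), Psmb1 at -0.10 (SE 0.10) and Psmb7 at -0.14 (SE 0.11), subunits of the core particle, named after their values were seen. None had an unadjusted p under 0.05 in edgeR, and with the GC and length correction the list median was -0.02. Psmd3, a regulatory particle subunit, was higher at 0.33 (SE 0.15).

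Genes of the 2-cell stage were scarce in these blastocysts, with 8 of 23 measured genes tested. Of these 1 was higher and 7 lower in siNampt, with a median of -0.93, -2.88 in ND and 0.40 in HFD, and -0.11 without ND_siNampt replicate 1. The median of siNT minus C was -1.52. Many members have near-identical copies. Replication-dependent histone genes, whose messengers mostly lack a poly(A) tail, had medians of -0.29 in ND and 0.42 in HFD.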
